A study of Rattus norvegicus with 40 samples.

Results

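Plasma miRNAs were compared on day 9 (D9) between the rats that later had epilepsy after traumatic brain injury (TBI+, n = 7) and the injured rats that did not (TBI−, n = 9). These 16 libraries were chosen by the animal group and day in the sample titles and are 16 of the 40 libraries of the series. All rats were adult male Sprague-Dawley rats. TBI was a lateral fluid-percussion injury, a pressure pulse delivered to the exposed dura over a single hemisphere, and 4 rats had the operation without the pulse (sham). Both outcome groups received the same injury and carried no transgene or drug treatment in the labels, and they were told apart only months later by a month of continuous video-EEG in the sixth month. Blood was drawn from the tail vein on D2 and D9, and each D9 library came from the pooled plasma aliquots of 1 rat.

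MiRNAs are short RNAs that guide Argonaute proteins to messenger RNAs, mostly through the seed, bases 2 to 8 of the mature strand. They also circulate in plasma, bound to proteins or enclosed in vesicles. Blood cells, vessel wall, liver and gut supply most of them, and injured brain tissue can add neuronal ones. Epileptogenesis is the slow process that leads from an injured brain to spontaneous seizures, and a plasma miRNA that differs between the outcomes long before the seizures are recorded could serve as a marker of it.

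The mature sequences of 6 miRNAs are shown. In the edgeR fit below, only these averaged at least 10 reads and had an unadjusted p under 0.05 between TBI+ and TBI− on D9. The sequences are RefSeq entries on the rat assembly GRCr8, written 5′ to 3′ with the seed in capitals.
let-7d-3p: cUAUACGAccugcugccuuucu
miR-134-5p: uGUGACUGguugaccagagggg
miR-341: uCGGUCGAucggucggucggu
miR-488-3p: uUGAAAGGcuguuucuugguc
miR-142-3p: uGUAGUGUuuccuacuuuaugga
miR-204-5p: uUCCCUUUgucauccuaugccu
The 14 sequences found for the 16 miRNAs with the lowest p each way carried 14 different seeds, so these miRNAs were not a seed family. Let-7d-3p lies on the plus strand at chr17:16322327-16322348, in a noncoding RNA gene, and miR-134-5p and miR-341 lie on the plus strand of chromosome 6, at chr6:134570320-134570341 and chr6:134347871-134347891. MiR-488-3p (chr13:73216589-73216609) lies within the neuronal gene Astn1, miR-142-3p (chr10:73055155-73055177) within Tspoap1 and miR-204-5p (chr1:229743493-229743514) within Trpm3.

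The deposited values are read counts, and the library total is their sum over all miRNAs. It was 1207698 ± 604924 reads in TBI+ and 1328565 ± 808238 in TBI− (mean ± SD), with a range over both groups from 332161 to 2864893, and the totals did not differ beyond the spread between rats (p = 0.752, exact permutation test, two-sided). Between 368 and 421 miRNAs were detected in TBI+ rats and between 329 and 439 in TBI− rats (p = 0.803, exact permutation test). The hemolysis ratio, log2 of miR-451-5p (from erythrocytes) over miR-23a-3p, was 1.30 ± 0.72 in TBI+ and 1.26 ± 0.59 in TBI− (p = 0.894, exact permutation test). The library of TBI− rat 2 stood apart: it had the smallest total, 329 miRNAs and the lowest median Spearman correlation with the other libraries (0.903, against up to 0.946). For several miRNAs the log2 fold change over all rats is given with and without it. The ranges and intervals of the brain-enriched miRNAs include it, as do the values within the first run of library numbers.

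Library numbers in the titles fell into 3 runs that were spread unevenly over the outcomes. The first run held 3 TBI+ and 5 TBI− rats (TBI+ rats 5, 6 and 7 and TBI− rats 1, 2, 3, 4 and 9), the second held the other 4 TBI− rats, and the last held the other 4 TBI+ rats and all sham rats. The labels do not say what the numbers record. The outcomes could be compared at a like library number only within the first run. A D9 fit with the run as a covariate takes its contrast of the outcomes from the same rats, so it is no separate check. The sham rats had the smallest totals, 140636 to 358202 reads. Their values are given as a reference level, but their libraries also entered the scaling and the estimate of the spread in the edgeR fit below. With the 16 TBI libraries alone, that fit called 0 of 540 miRNAs. Its lowest p after Benjamini-Hochberg adjustment was 0.657.

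No miRNA differed between TBI+ and TBI− on D9 at an adjusted p under 0.05. The quasi-likelihood test of edgeR called 0 of 541 miRNAs (0%), and the lowest p after Benjamini-Hochberg adjustment was 0.802. At an unadjusted p under 0.05 there were 22 (4.07%), 8 higher and 14 lower in TBI+, and DESeq2 called 0 with 12 at an unadjusted p under 0.05. Of the 22, 16 had a mean under 10 reads and 11 a mean under 1 read. Among the 269 miRNAs that averaged at least 10 reads, 6 (2.23%) had an unadjusted p under 0.05. In no miRNA (0 of 541, 0%) did the CPM values (reads per 1000000 reads of the library) of the 7 TBI+ rats all lie above or all lie below those of the 9 TBI− rats.

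**Figure D1:**
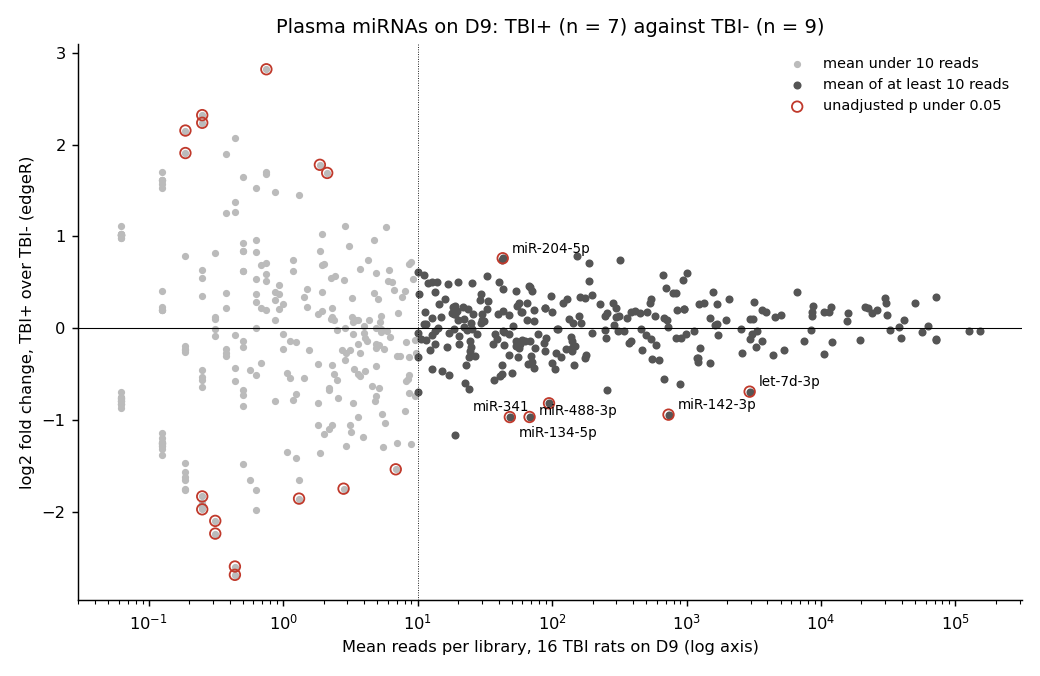
Log2 fold change of TBI+ (n = 7) over TBI− (n = 9) on D9 against mean reads per library on a log axis, for 541 miRNAs. Red circles are the 22 miRNAs with an unadjusted p under 0.05, of which 16 lie left of the dotted line at 10 reads, and the 6 to the right of it are named.

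The size of the differences that the data leave possible depended on the abundance. Among the 269 miRNAs with at least 10 reads the median log2 fold change was 0.03, with quartiles of −0.17 and 0.21 and a range from −1.17 to 0.79. The 95% interval lay within 1 log2 unit of 0 (at most 2-fold either way) for 183 of them, 68.0%, and within 0.5 log2 units for 4. It lay within 1 log2 unit for 65 of the miRNAs with 10 to 100 reads, 56 of 76 with 100 to 1000 reads and 62 of 67 with more. In the fit over all rats, which leaves out the run of library numbers, the intervals of these 62 lay inside a 2-fold difference. They leave smaller differences possible. Within the first run alone, miR-451-5p and miR-16-5p, both among the 62, exceeded 1 log2 unit, as given below.

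Over all rats, the most abundant miRNAs were at similar levels in both outcomes. Within the first run of library numbers this did not hold for miR-16-5p, as given below. The 8 highest were miR-92a-3p, miR-22-3p, miR-192-5p, miR-10b-5p, miR-10a-5p, miR-30a-5p, miR-191a-5p and miR-16-5p, and together they held 52.7% of the reads on average, between 48.5% and 59.6% in single rats. MiR-92a-3p, an erythrocyte-rich miRNA, ranged from 84833 to 142529 CPM in TBI+ (median 114627) and from 86271 to 198909 CPM in TBI− (median 109308). Its log2 fold change was −0.03, with a 95% interval from −0.46 to 0.40. MiR-30a-5p varied least among the 8, with a coefficient of variation of 14.7% over the 16 rats, and its interval from −0.44 to 0.36 was the narrowest of the 8. MiR-192-5p, which liver and gut epithelium make in quantity, had the largest fold change of the 8, 0.34 (95% interval −0.22 to 0.91), and varied by 40.1%. With the run as a covariate, a contrast that rests on the rats of the first run, miR-192-5p had −0.40. The counts of miR-10a-5p and miR-10b-5p, paralogs from the Hox clusters, differed by less than 5%, so the 2 cannot be taken as separate measurements.

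Let-7d-3p, the passenger strand of a let-7 precursor, had the lowest p among the miRNAs with at least 10 reads. It ranged from 1147 to 2625 CPM in TBI+ (median 1700), from 1336 to 4821 CPM in TBI− (median 3241) and from 1244 to 1727 CPM in sham rats. The ranges overlapped, and the TBI+ rat was the higher one in 12 of the 63 pairs of 1 TBI+ and 1 TBI− rat. The log2 fold change was −0.69 (SE 0.27, 95% interval −1.23 to −0.15, adjusted p = 0.802 by edgeR's quasi-likelihood test). Within the first run of library numbers it was −0.47 (SE 0.43), and TBI+ was higher in 1 of 15 pairs. Leaving out each rat in turn gave values from −0.86 to −0.57.

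MiR-134-5p, a neuronal miRNA known for limiting dendritic spine size, ranged from 9.47 to 47.4 CPM in TBI+ (median 23.2) and from 19.5 to 167 CPM in TBI− (median 29.1). TBI− rat 7 alone held the highest value, and the next TBI− rat had 59.2 CPM. The log2 fold change was −0.97 (SE 0.41), and −0.42 without TBI− rat 7. Sham rats had 42.7 to 80.2 CPM, above the median of either outcome.

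MiR-341 ranged from 23.0 to 106 CPM in TBI+ (median 50.5), from 45.0 to 194 CPM in TBI− (median 92.4) and at least 61.7 CPM in each sham rat. The TBI+ rats split by library number: the 3 of the first run had 23.0 to 29.6 CPM and the 4 of the last run had 50.5 to 106 CPM. The log2 fold change over all rats was −0.82 (SE 0.38). Within the first run it was −1.70 (SE 0.54), and TBI+ was higher in 0 of 15 pairs, but the adjusted p there was 0.390 by the same edgeR test. Of the 501 miRNAs with reads in the first run, 12 (2.4%) had no overlap between its 3 TBI+ and 5 TBI− rats, 6 of them higher and 6, miR-341 and the PCR reference miR-28-3p included, lower in TBI+. In the fit over all rats, leaving out TBI− rat 2 gave −0.76 for miR-341. Between the last and the first run within TBI+ the log2 fold change of miR-341 was 1.61 (adjusted p = 0.293 by edgeR).

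The differences of miR-488-3p and miR-142-3p rested on TBI− rat 2. MiR-488-3p ranged from 18.3 to 94.0 CPM in TBI+ (median 39.6) and from 27.8 to 367 CPM in TBI− (median 48.4), and TBI− rat 2 held the 367 CPM. Its log2 fold change was −0.97 (SE 0.45) with that rat and −0.37 (SE 0.36) without it. MiR-142-3p, which blood cells of all lineages make, ranged from 347 to 744 CPM in TBI+ and from 286 to 4802 CPM in TBI−, with medians of 474 and 477. Its log2 fold change of −0.94 (SE 0.46) became −0.17 (SE 0.35) without TBI− rat 2, and the other arm, miR-142-5p, had 0.20 (SE 0.35) over all rats.

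MiR-204-5p, an miRNA of the choroid plexus and pigment epithelium, was the only one of the 6 that was higher in TBI+. It ranged from 12.5 to 154 CPM in TBI+ (median 32.7), from 19.4 to 48.1 CPM in TBI− (median 30.1) and from 30.8 to 89.3 CPM in sham rats. TBI+ rat 4 held the highest value and the next TBI+ rat had 59.9 CPM. The log2 fold change was 0.76 (SE 0.37), and 0.21 (SE 0.32) without TBI+ rat 4. Within the first run of library numbers it was 0.11 (SE 0.56).

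**Figure D2:**
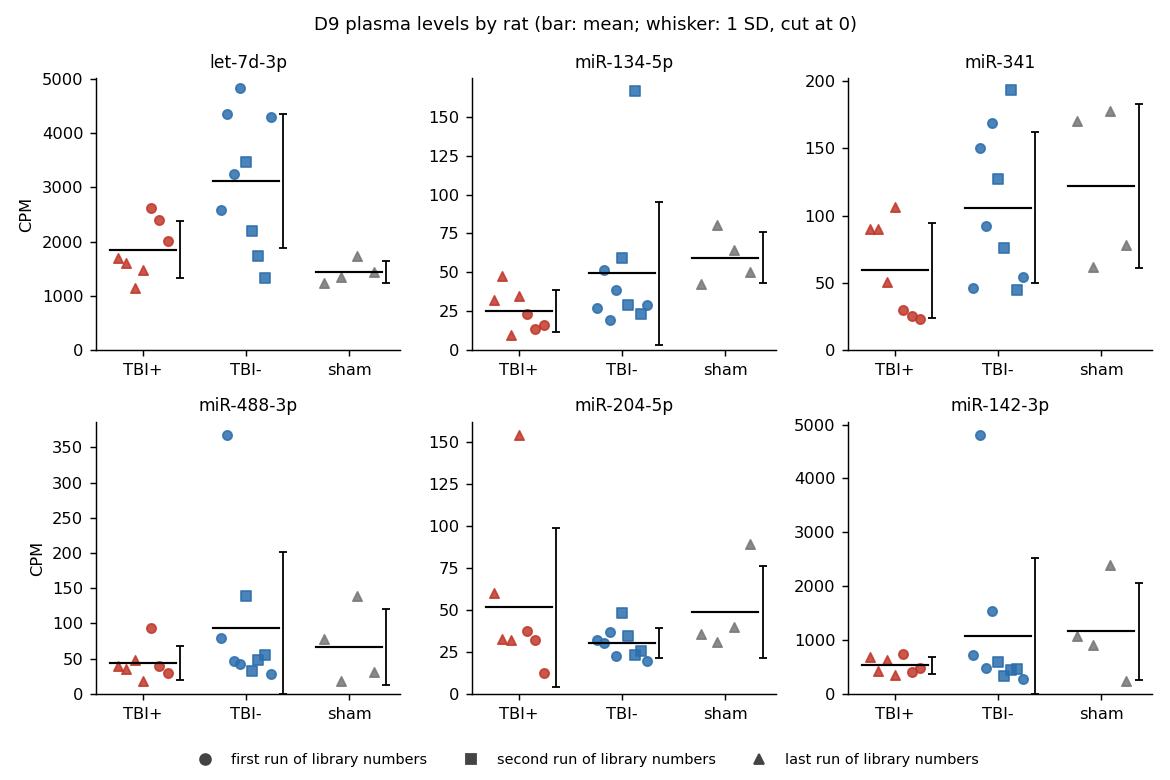
CPM by rat on D9 in TBI+ (red, n = 7), TBI− (blue, n = 9) and sham rats (grey, n = 4) for the 6 miRNAs with at least 10 reads and an unadjusted p under 0.05. Symbols mark the run of library numbers, the bar is the mean and the whisker 1 SD; every panel shows overlapping groups, and single rats lie far above the rest for miR-134-5p, miR-488-3p, miR-204-5p and miR-142-3p.

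In the edgeR fit that includes the sham libraries, the other miRNAs with the lowest p each way had intervals that included 0. Lower in TBI+ were miR-6216 (log2 fold change −0.67), the muscle miRNA miR-133a-5p (−1.17) and the epithelial miR-429 (−0.56). MiR-133a-5p reached 175 CPM in TBI− rat 2, and its value without that rat was −0.26. MiR-429 had −0.37 without TBI− rat 4. Higher in TBI+ were miR-802-5p (0.79), miR-1247-5p (0.75), miR-122-3p (0.74), miR-194-5p (0.71), miR-146b-5p (0.57), miR-3559-3p (0.56) and miR-181a-2-3p (0.51). Without TBI+ rat 2 miR-122-3p had 0.43, and without TBI+ rat 7 miR-3559-3p had 0.31. With the run of library numbers as a covariate, miR-1247-5p turned to −0.15 and miR-204-5p to −0.04, while the other 14 of the 16 kept their direction in all 29 alternatives run.

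Liver and gut miRNAs were higher in TBI+ in each of the 4 listed members that had at least 10 reads, and none passed the test. The median log2 fold change was 0.53, against 0.03 over all 269 miRNAs with at least 10 reads. MiR-802-5p, a hepatic miRNA, ranged from 75.5 to 291 CPM in TBI+ (median 153) and from 9.03 to 187 CPM in TBI− (median 96.3). MiR-194-5p, which is made with miR-192, ranged from 95.3 to 231 CPM in TBI+ (median 189) and down to 24.1 CPM in TBI− (median 115), and the TBI+ rat was higher in 54 of 63 pairs. MiR-375-3p, of islets and gut endocrine cells, had a log2 fold change of 0.14. Summed over the list, TBI+ rats had 38371 to 102612 CPM and TBI− rats 33716 to 115575 CPM, so the list's total, which is nearly all miR-192-5p, overlapped widely. MiR-122-3p, the passenger strand of the main hepatocyte miRNA, was not in the list. It ranged from 184 to 721 CPM in TBI+ (median 322) and from 27.1 to 429 CPM in TBI−. Without TBI− rat 2 the log2 fold changes were 0.65 for miR-802-5p, 0.58 for miR-194-5p and 0.60 for miR-122-3p. Within the first run of library numbers the log2 fold changes were 0.72 for miR-802-5p, 0.63 for miR-194-5p and 0.59 for miR-122-3p, but −0.21 for miR-192-5p and −0.67 (SE 0.44) for miR-375-3p, so there 2 of the 4 listed members were lower in TBI+. With the run as a covariate, which rests on the same rats of the first run, these 2 had −0.40 and −0.86.

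The brain-enriched miRNAs that the study followed by PCR did not separate the outcomes on D9, and 0 of the 6 tested had an unadjusted p under 0.05. The study chose some of them on D2 libraries of these rats, so the list is not independent of the cohort. The mature sequences of 4 are shown because 2 of them, miR-132-3p and its relative miR-212-3p, neighbours on chromosome 10 and both induced by neuronal activity, share a seed, and miR-136-3p and miR-323-3p come from the chromosome 6 locus that also holds miR-134 and miR-341.
miR-132-3p: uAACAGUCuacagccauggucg
miR-212-3p: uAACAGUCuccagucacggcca
miR-136-3p: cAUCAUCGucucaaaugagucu
miR-323-3p: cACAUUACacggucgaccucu
MiR-132-3p ranged from 24.5 to 68.6 CPM in TBI+ (median 45.3) and from 12.2 to 67.5 CPM in TBI− (median 38.7), with a log2 fold change of 0.24 (95% interval −0.51 to 0.98). MiR-212-3p ranged from 11.2 to 24.5 CPM in TBI+ (median 15.4) and from 3.01 to 28.7 CPM in TBI− (median 16.6), with 0.02 (−0.84 to 0.87). MiR-136-3p ranged from 22.5 to 59.2 CPM in TBI+ (median 29.4) and from 6.02 to 81.5 CPM in TBI− (median 32.4), with −0.03 (−0.75 to 0.68). For these 3 miRNAs the intervals lay within a 2-fold difference either way.

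The other brain-enriched members were too sparse on D9 for such a statement. MiR-323-3p had at most 7 reads in a TBI+ rat and 22 in a TBI− rat, and its interval ran from −1.10 to 1.07. MiR-129-5p had at most 6 and 12 reads. MiR-124-3p, the most neuron-specific of them, had reads in 2 of 7 TBI+ and 2 of 9 TBI− rats, 3 in each, and its interval ran from −1.60 to 1.99. All its counts in the 40 libraries were multiples of 3, and the cause of this was not tested. A floor of 3 reads corresponds to between 1.05 and 9.03 CPM in the 16 libraries, and it covers counting error only.

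**Figure D3:**
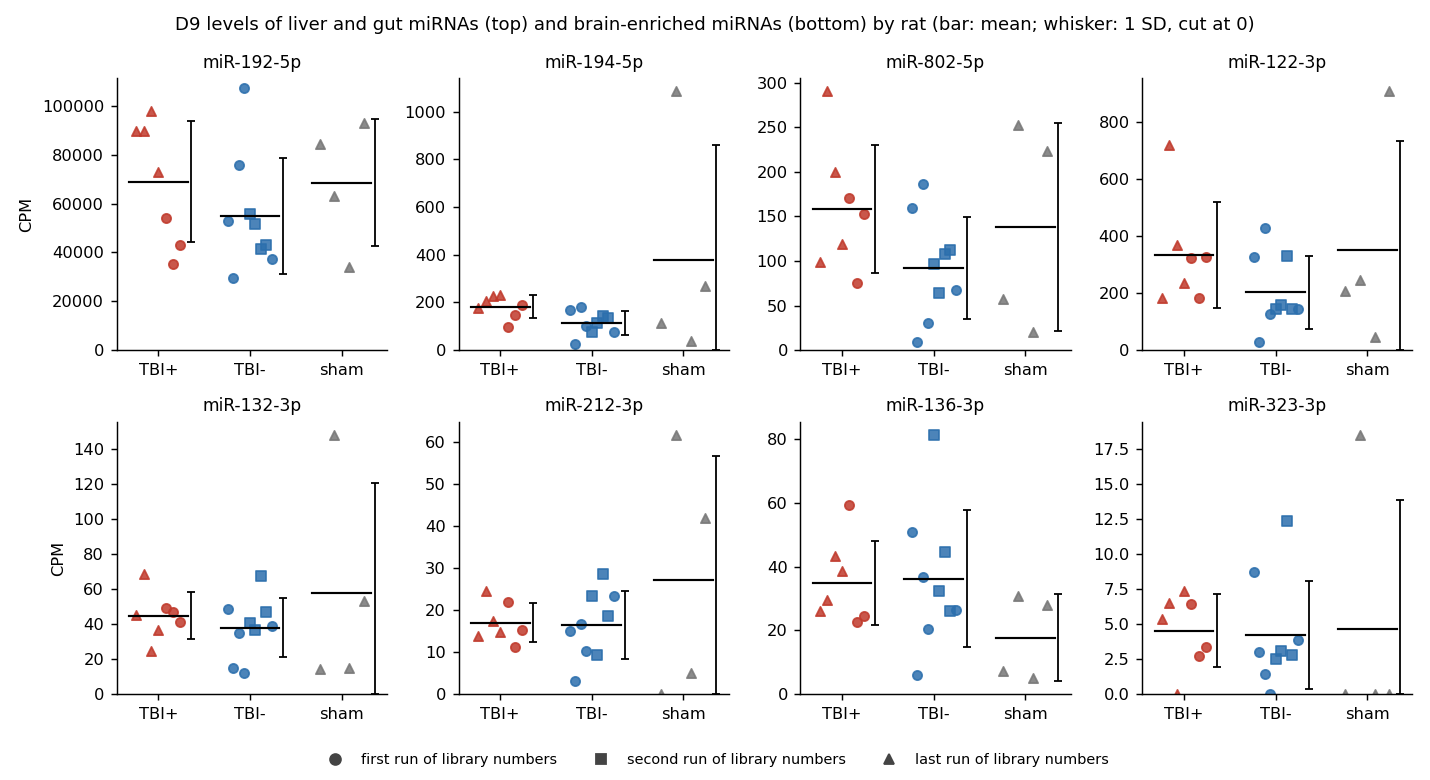
CPM by rat on D9 for 4 liver and gut miRNAs (top) and 4 brain-enriched miRNAs (bottom) in TBI+ (red, n = 7), TBI− (blue, n = 9) and sham rats (grey, n = 4), with symbols for the run of library numbers, the mean as a bar and 1 SD as a whisker. TBI+ and TBI− overlap in every panel, and the median of TBI+ is higher for each of the 4 liver and gut miRNAs.

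The remaining members of the list, miR-434-3p and also miR-9a-3p, were listed at 0 in each of the 40 libraries. A count of 0 for these rows does not show that the miRNA was lacking. The study detected both by RT-qPCR in other D2 plasma aliquots of these rats. Over all lists, 12 miRNAs were at 0 in the 16 libraries, among them the hepatocyte miRNA miR-122-5p, the muscle miRNAs miR-1-3p and miR-133a-3p, the endothelial miR-126a-5p, let-7d-5p and let-7e-5p. RefSeq places the mature strand of 9 of the 12 over that of another annotated miRNA, as with miR-122-5p and miR-3591. Of 685 miRNAs matched to RefSeq, 88 had such an overlap at every copy, and 85 of these (96.6%) were at 0 in all 40 libraries, against 69 of 597 (11.6%) without one. How the counting treated reads on such overlaps was not tested, and no comparison of TBI+ and TBI− could be made for these miRNAs.

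The other neural miRNAs held no member that passed the test. Of 22 listed, 19 were tested and 12 had at least 10 reads, of which 4 were higher and 8 lower in TBI+, with a median log2 fold change of −0.06, beside 47.2% lower and a median of 0.03 over all 269. MiR-134-5p was the only one with an unadjusted p under 0.05. MiR-138-5p, enriched in brain, had −0.61 (SE 0.34), and miR-127-3p had −0.68 (SE 0.36). MiR-128-3p, abundant in neurons and also in plasma at 2417 to 9726 CPM in TBI+ and 2473 to 9359 CPM in TBI−, had −0.03 (SE 0.32).

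Markers of inflammation and blood cells showed no difference that passed the test. In plasma, a release from fewer cells and a smaller release per cell cannot be told apart. All 13 inflammation miRNAs had at least 10 reads, with 8 higher and 5 lower in TBI+ and a median of 0.14. MiR-146a-5p and miR-146b-5p, which restrain NF-kappaB signalling, had 0.60 (SE 0.43) and 0.57 (SE 0.35), whereas miR-155-5p had −0.11 and miR-21-5p 0.07. MiR-223-3p, of myeloid cells, had −0.04 and miR-150-5p, of lymphocytes, 0.14. The erythrocyte list had a median of 0.21 over 8 members, 6 of them higher in TBI+. Summed, the erythrocyte miRNAs held 140585 to 233237 CPM in TBI+ and 118184 to 275410 CPM in TBI−. MiR-451-5p ranged from 2222 to 12198 CPM in TBI+ (median 5311) and from 1414 to 10873 CPM in TBI− (median 5262), with a log2 fold change of 0.24 (SE 0.37). The first run of library numbers alone gave 1.19 (SE 0.44) for miR-451-5p and 1.06 (SE 0.42) for miR-16-5p, both with an adjusted p of 0.390 by the edgeR test.

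Vessel wall and platelet miRNAs had a median of 0.11 over 6 members, 5 of them higher in TBI+, with miR-126a-3p at −0.20 and miR-24-3p at 0.52 (SE 0.53). The let-7 family had a median of −0.02 over 7 members, and all their intervals lay within 1 log2 unit. Without TBI− rat 2, let-7i-5p went from −0.28 to −8.5e-05 and let-7f-5p from −0.13 to 0.02. Of the muscle list only miR-133b-3p had at least 10 reads, with −0.31 (SE 0.33). The study's PCR reference miR-28-3p ranged from 661 to 1180 CPM in TBI+ and from 826 to 1092 CPM in TBI−, with −0.03 (95% interval −0.49 to 0.42).

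**Figure D4:**
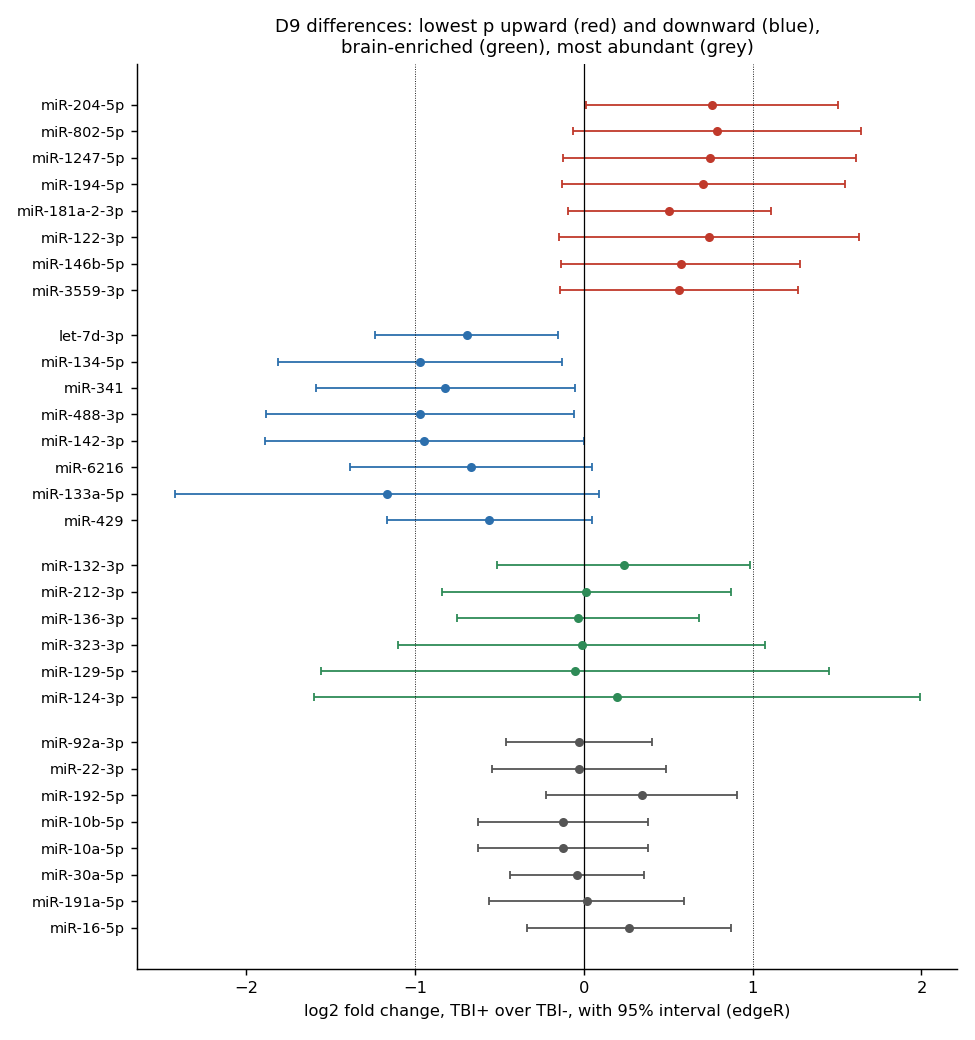
Log2 fold changes of TBI+ over TBI− on D9 with 95% intervals for the 8 miRNAs each way with the lowest p and at least 10 reads (red higher, blue lower), 6 brain-enriched miRNAs (green) and the 8 most abundant ones (grey). The intervals of the abundant miRNAs lie within the dotted lines at 1 log2 unit, and those of miR-323-3p, miR-129-5p and miR-124-3p extend beyond both lines.

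The runs of library numbers were also compared within each outcome. Between the last and the first run within TBI+ (4 and 3 rats), 1 miRNA was called by edgeR (0.185%) and 43 had an unadjusted p under 0.05 (7.95%). The called one was miR-128-3p, printed here for that reason, which had 9502 to 9726 CPM in the 3 TBI+ rats of the first run and 2417 to 3678 CPM in the 4 of the last, a log2 fold change of −1.72 (SE 0.39, adjusted p = 0.0329 by edgeR).
miR-128-3p: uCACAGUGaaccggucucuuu
The same fit called 0 without TBI+ rat 1, 2, 3, 4, 6 or 7 and 2 without rat 5, with let-7f-5p added. Let-7f-5p had 13787 to 25341 CPM in the first run and 7051 to 11106 CPM in the last. Within TBI−, between the second and the first run (4 and 5 rats), edgeR called 0, DESeq2 called 0, and 39 had an unadjusted p under 0.05 by edgeR (7.21%). The lowest p belonged to miR-142-3p, the value that rests on TBI− rat 2. Within the first run miR-128-3p was higher in TBI+ in 15 of 15 pairs (log2 fold change 0.89, SE 0.42), 1 of the 12 miRNAs without overlap there, and over all rats it had −0.03.

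MiRNAs read in 1 outcome only were shallow, setting aside the sham rats, in which 22 of the 23 in TBI+ and 35 of the 38 in TBI− also had no read. These 23 and 38 stand beside 540 miRNAs with a read in the 16 libraries. TBI+ had 7 rats and TBI− 9 in which a read could occur. In 23 miRNAs reads came only from TBI+ rats, from 1 rat in 19 cases and 2 rats in 4, with at most 4 reads in all. In 38 miRNAs they came only from TBI− rats, from 1 rat in 26 cases and from 3 or more in 5. MiR-770-3p had 7 reads over 5 TBI− rats and miR-204-3p 5 reads over 3, whereas miR-101b-5p had 4 reads over 2 TBI+ rats and miR-375-5p 3 reads over 2. Counts this low are near the floor, and a difference between the outcomes was not detectable at this depth.

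The same rats had been sampled on D2. The runs of library numbers were also uneven there, with 4 TBI+ rats in the first run, 3 TBI+ and 5 TBI− rats in the second and 4 TBI− rats in the last. On D2, 0 of 565 miRNAs were called by edgeR and by DESeq2, and 38 had an unadjusted p under 0.05 by edgeR (6.73%). Of the 22 miRNAs with an unadjusted p under 0.05 on D9, 21 were tested on D2 and 8 had the same direction there. Of the 6 with at least 10 reads, only miR-134-5p had the same direction, with a log2 fold change of −0.09 on D2.

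The change of the outcome difference from D2 to D9 was tested as an interaction. Of 581 miRNAs, edgeR called 0 (0%) and 42 had an unadjusted p under 0.05 (7.23%), whereas DESeq2 called 1, let-7d-3p (adjusted p = 0.0392). Both fits took the D2 and D9 libraries of a rat as independent, though the change is within a rat. With the rat as a block, edgeR called 0, with a lowest adjusted p of 0.489. DESeq2 was not run with that block. On D2, let-7d-3p ranged from 1823 to 3315 CPM in TBI+ (median 2694) and from 1083 to 2759 CPM in TBI− (median 1645). It was thus higher in TBI+ on D2, with a log2 fold change of 0.50 (SE 0.18), and lower on D9. It was higher on D9 than on D2 in 8 of 9 TBI− rats and lower in 4 of 7 TBI+ rats. The change in the difference was −1.22 (SE 0.32, 95% interval −1.86 to −0.58, adjusted p = 0.189 by edgeR). The library runs of the outcomes differed from D2 to D9. On D9 the log2 fold change of let-7d-3p was −0.73 from the first to the last run in TBI+ and −0.88 from the first to the second in TBI−. Neither passed the threshold (adjusted p = 0.550 and 0.460 by edgeR), and a part of the runs in the change was not tested. With the run as a covariate over the 40 libraries, a fit added after the data were seen, the change was −0.44 (SE 0.36, adjusted p = 1 by edgeR).

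MiR-429 and miR-1249 had a like pattern. MiR-429, of epithelia, was higher in TBI+ on D2 (log2 fold change 0.67) and lower on D9, a change in the difference of −1.29 (SE 0.40), and it was higher on D9 than on D2 in 7 of 9 TBI− and 2 of 7 TBI+ rats. For miR-1249 the change in the difference was −1.36 (SE 0.48). In the other direction, miR-146b-5p was higher on D9 than on D2 in 7 of 7 TBI+ rats and in 5 of 9 TBI− rats, a change in the difference of 1.00 (SE 0.43). For miR-150-3p it was 1.04 (SE 0.43) and for miR-181a-2-3p 0.95 (SE 0.38). All of these missed the adjusted threshold, with adjusted p from 0.531 to 0.621 by edgeR. With the run as a covariate the change was −0.80 for miR-429, −0.29 for miR-1249, 0.63 for miR-146b-5p, 0.25 for miR-150-3p and 0.97 for miR-181a-2-3p. Between the runs compared on D9, miR-1249 had −1.48 in TBI+ (adjusted p = 0.293 by edgeR) and −0.64 in TBI−, and miR-429 had −0.44 and −0.90. None of these was called.

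**Figure D5:**
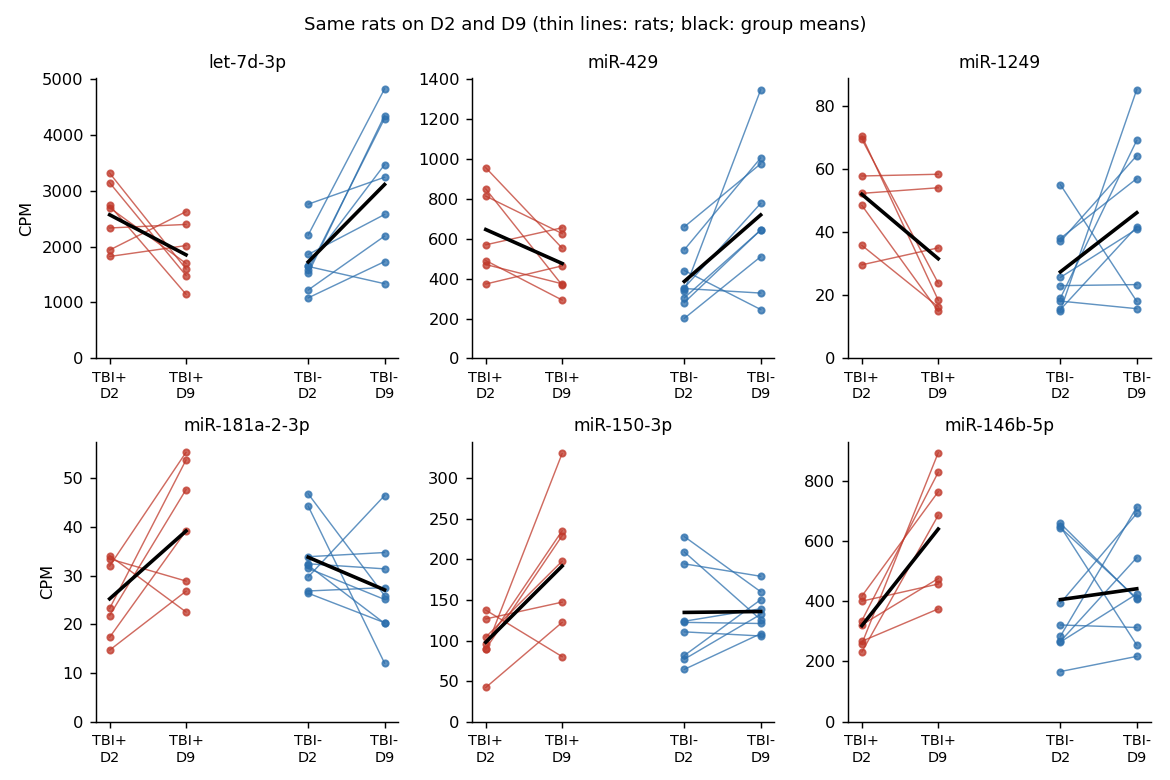
CPM of the 6 miRNAs with the lowest interaction p on D2 and D9 in the same rats, TBI+ in red (n = 7) and TBI− in blue (n = 9), with group means in black. For let-7d-3p, miR-429 and miR-1249 the mean is lower on D9 in TBI+ and higher on D9 in TBI−, and for miR-146b-5p all 7 TBI+ rats are higher on D9.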

How the data were processed

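Small RNA from plasma was sequenced in 16 TBI rats and 4 sham rats on D2 and D9. Per the study's methods, the authors trimmed reads with Trimmomatic 0.36, merged both sequencing replicates of each sample, aligned them to the rat genome (Rno6) with Bowtie2 and counted reads on miRBase miRNAs with featureCounts. The deposited values are raw read counts for 752 miRNAs, of which 581 had a read in any library and 541 on D9. MiRNAs without reads were dropped.

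CPM values are reads per 1000000 reads of a library. TBI+ was compared with TBI− by edgeR 4.0.16 (quasi-likelihood test, TMM scaling, R 4.3.3) over all 20 D9 libraries, with Benjamini-Hochberg adjustment over all miRNAs tested and a threshold of 0.05. The standard error was the log2 fold change divided by the square root of F, and intervals are 95% intervals of that fit. DESeq2 1.42.0, other scalings, filters, covariates, thinning and leaving out each rat were alternatives, and leaving out rats in the comparison of library runs and the run as a covariate of the interaction were added after the data were seen. Single values were compared by exact permutation tests, two-sided (scipy 1.17.1, Python 3.11.15). The scripts were tested on simulated data. Of 57 pairs of libraries within a group, 0 agreed within sampling noise.

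Animal numbers of TBI+ and TBI− do not come from shared animals, so they did not pair rats. D2 and D9 libraries of 1 rat are paired by the animal in the titles, and the correlation of their deviations from the group means lay between −0.24 and 0.39.

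MiRNAs named are the 8 with the lowest p each way among those with a mean of at least 10 reads, the 8 most abundant, the brain-enriched and reference lists, the lowest p of each other list, the 3 lowest interaction p each way, the 2 lowest of each run comparison, called miRNAs and the 2 read in most rats of a single outcome. List members beyond these are named with the list, and miR-142-5p, miR-138-5p, miR-127-3p and the others were chosen after their values were seen. The members and lists were chosen with earlier results of these data known. Sequences and positions are RefSeq entries on GRCr8, found for 43 of 47 named miRNAs, and the counts carry no positions.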

Additional observations from a re-analysis of the deposited data

Results flagged for a closer look

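In 86 groups of 7 or 9 rats, 1 for each named miRNA with reads and outcome, 12 had a single rat whose distance from the next value was large for the range of its group. For values drawn from 1 normal distribution chance gives about 1 in 20 such groups. The rate for these miRNAs was not measured, many of them were chosen for a low p, and groups of the same rat are not independent.

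TBI− rat 2 was that rat for 5 miRNAs. It had 30558 CPM of let-7f-5p (the other TBI− rats 9227 to 17490), 24205 CPM of let-7i-5p (5475 to 10237), 4802 CPM of miR-142-3p (286 to 1539), 367 CPM of miR-488-3p (27.8 in the lowest TBI− rat) and 175 CPM of miR-133a-5p (2.58 to 67.2). Its library had the lowest total of the 16, 332161 reads, and its part in these values was not tested. TBI− rat 7 had 167 CPM of miR-134-5p (19.5 to 59.2), and TBI− rat 1 had 12.4 CPM of miR-129-5p (up to 6.18).

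Among TBI+ rats, rat 7 had 11727 CPM of let-7i-5p (the others 5637 to 8166) and 47.0 CPM of miR-3559-3p (19.7 to 29.4). Rat 2 had 721 CPM of miR-122-3p (184 to 369), rat 4 had 154 CPM of miR-204-5p (12.5 to 59.9), and rat 5 had 94.0 CPM of miR-488-3p (18.3 to 48.1).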

How the results depend on the processing

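The comparison of TBI+ with TBI− on D9 called 0 miRNAs in each of the 29 alternatives, which were 13 other settings and 16 that each left out 1 rat. The lowest adjusted p over them was 0.110, after thinning all libraries to 332161 reads. The number with an unadjusted p under 0.05 lay between 5 of 275 miRNAs (filterByExpr, a minimum count) and 42 of 541 (run of library numbers as a covariate). In the main fit it was 22 of 541 (4.07%). It was 12 of 541 with DESeq2 and 40 of 501 within the first run alone. The covariate fit and the first run alone both take the contrast from the rats of the first run. With the animal number as a replicate block, 0 of 541 were called, 16 had an unadjusted p under 0.05 and the lowest adjusted p was 0.539. The numbers share no animal: same-numbered rats correlated between −0.31 and 0.31, and 3 of 7 correlated best with their own number. With the rat as a replicate block, the edgeR interaction of day and outcome called 0 of 581 miRNAs. There 31 had an unadjusted p under 0.05, so no call of edgeR was changed. With the run of library numbers as a covariate, added after the data were seen, the interaction called 0 of 581 and 25 had an unadjusted p under 0.05. Of 464 values of the 16 miRNAs with the lowest p, 2 reversed, miR-1247-5p (−0.15) and miR-204-5p (−0.037), both with the run as a covariate. Of the values of the other 29 named miRNAs, 96 had another sign than the main value and 0 were called. DESeq2 called 1 miRNA in the interaction and 5 between the runs within TBI+, where filterByExpr called 0 and leaving out single rats gave 0 to 2. The difference of library totals (TBI+ minus TBI−) was −120866 reads over all rats and 663560 within the first run. That of detected miRNAs was 4.14, −2.94 after thinning, −6.65 for at least 3 reads and 28.9 within the first run. That of the hemolysis ratio was 0.04 over all rats and 0.42 within the first run. The causes were not tested. Depth limits the 272 miRNAs under 10 reads, and with 3 TBI+ and 5 TBI− rats in the first run, run and outcome cannot be told apart for the other rats.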

Other observations

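Because miR-134-5p and miR-341 lie in the same stretch of chromosome 6, the imprinted locus whose maternal allele is transcribed into a long array of miRNAs, its other miRNAs were looked at after their values were seen. Between positions 134298094 and 134579828 of chromosome 6 (GRCr8), 98 miRNAs of the table have a mature sequence, 62 had a read on D9 and 13 a mean of at least 10 reads. Apart from miR-134-5p and miR-341, which prompted the look, 7 of the other 11 (63.6%) were lower in TBI+ on D9, beside 47.2% of all 269 miRNAs with at least 10 reads. The median log2 fold change of the 11 was −0.17, beside 0.03, and 0 of them had an unadjusted p under 0.05 by edgeR. MiR-370-3p had −0.70, miR-127-3p −0.68, miR-300-3p −0.52 and miR-381-3p −0.43, whereas miR-541-5p had 0.23 and miR-434-5p 0.18. The median of the 11 was −0.21 without TBI− rat 2, −0.14 without TBI− rat 7 and −0.66 within the first run of library numbers. Within that run, 1 of the 11 had an unadjusted p under 0.05 by edgeR. On D2 it was 0.01, with 5 of 11 lower in TBI+. Summed over the whole locus, those 2 included, TBI+ rats had 250 to 853 CPM (median 644) and TBI− rats 436 to 1400 CPM (median 651), so the groups overlapped. MiRNAs of 1 locus may share a transcript and are not independent, and no test was made of a list chosen this way.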
